A study of Spodoptera frugiperda with 3 samples.

Results

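A total of 361 unigenes were higher in cells with Sf-15 repression than in normal Sf9 cells while their level upon Sf-15 overexpression stayed near that of normal cells. A unigene is an assembled transcript sequence, and those named Unigene with a number are singletons, which the assembly did not place in a cluster of similar contigs. The 361 were taken from 30921 singletons, in a set of 42041 unigenes. They were chosen by their measured levels, having a log2 ratio of (FPKM + 1) of at least 0.9 for ASO against Sf9, a ratio of -0.4 to 0.4 for Sf-15 against Sf9, and at least 50 raw fragments in ASO. FPKM counts fragments relative to the length of the unigene (in kilobases) and to the mapped fragments of the library (in M, mega), so it can be compared between unigenes of different length. Both ratios and the fragment minimum are thus the choice itself, and the values below describe the members without a test.

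RNA was sequenced from Sf9 cells that received an antisense oligonucleotide against Sf-15 (the library ASO), from Sf9 cells that received the overexpression plasmid (labelled Bm_15, here Sf-15), and from normal Sf9 cells (Sf9). Sf9 is an established line of ovary cells of the fall armyworm *Spodoptera frugiperda*, and all 3 cultures were between passage 15 and 18. The labels give 2 μg of plasmid or oligonucleotide with a lipid reagent and several harvest times, without naming the time of these libraries. Each condition had 1 library, so the spread between cultures is unknown and no interval below covers it. Intervals of fragment ratios and of fragment shares cover counting error only. Normal cells are the only reference, and no library of cells transfected with a control oligonucleotide or an empty plasmid was analysed here. An effect of transfection common to both transfected libraries and an effect of Sf-15 therefore cannot be told apart from either ratio alone. An effect of the oligonucleotide itself would be present in ASO only. It cannot be told apart from repression of Sf-15, even with both ratios together. The oligonucleotide is a gapmer, with a DNA centre that recruits RNase H to cut the snoRNA and modified ends that protect it. The plasmid carries EGFP and Sf-15, each behind an *actinA3* promoter.

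C/D box snoRNAs are short nucleolar RNAs that pair with ribosomal RNA and guide the enzyme fibrillarin to methylate it on the ribose. Ribosome production draws on this machinery, and some snoRNAs have also been linked to splicing and to the level of messenger RNAs. Sf9 cells are much used for the study of apoptosis, the ordered cell death in which caspases cut cellular proteins, since baculoviruses carry proteins that block it in such cells. The unigenes carry assembly names only. None of them (0) matched a symbol, locus tag or gene number of the 16908 genes in the *S. frugiperda* reference table, so no role, position or sequence can be given for single members, and neither Sf-15 itself nor markers of ovary cells could be looked up.

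The libraries held 19.7 M fragments in ASO, 18.0 M in Sf-15 and 19.6 M in Sf9. The share of the members in all fragments was 0.409% in ASO (80735 fragments, exact 95% interval 0.406% to 0.412%), 0.184% in Sf-15 (33226 fragments, 0.182% to 0.186%) and 0.177% in Sf9 (34633 fragments, 0.175% to 0.179%). Together they were a minor part of the messenger RNA in each library. A single cluster contig, CL1590.Contig3, took 12.9% of the fragments in ASO and 18.9% in Sf-15, against 1.84% in Sf9, which lowers the FPKM of all other unigenes there. Scaling by edgeR's TMM method instead moved the log2 ratio for Sf-15 against Sf9 by 0.25 and that for ASO against Sf9 by -0.03. The median Sf-15 to Sf9 ratio of (FPKM + 1) over the 13595 singletons with at least 50 ASO fragments was -0.26 as deposited and -0.03 with TMM scaling.

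Of these 13595 singletons, 669 (4.92%) reached the ASO to Sf9 limit of 0.9, and 373 (2.74%) lay at -0.9 or below. With library totals that leave out CL1590.Contig3, which move the ASO to Sf9 ratio by 0.17 and the Sf-15 to Sf9 ratio by 0.27, 1120 reached 0.9 for ASO. The Sf-15 to Sf9 window was met by 8391 (61.7%). Both limits were met by the 361 members, 2.66% of the 13595 and 1.17% of all singletons. Among the 669, the share within the window was 54.0%, close to and somewhat below the 61.7% of all 13595. Of the other 308 unigenes, 294 were above the window and 14 below it. Over all 13595, the Sf-15 to Sf9 ratio had quartiles of -0.48 and -0.04, and the shares above and below the window were not computed. Both ratios divide by the same Sf9 library, so a low Sf9 count alone places unigenes with a raised ASO ratio on the upper side.

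The same limits were also applied to the other directions. A total of 14 singletons were raised in Sf-15 only, 42 were lowered in ASO only and 77 were lowered in Sf-15 only, with at least 50 fragments in Sf-15 for the first and in Sf9 for the others. Another 129 reached 0.9 in both transfected libraries, 0.949% of the 13595 singletons with at least 50 ASO fragments, against 2.66% for the members. With TMM scaling the members numbered 226, against 36 raised in Sf-15 only, 124 lowered in ASO only, 18 lowered in Sf-15 only and 165 raised in both. The fragment minimum was not set in the same library for all 5 sets, and shares of a common base were not computed for them. The counts therefore do not rank the sets, and they changed with the scaling.

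**Figure D1:**
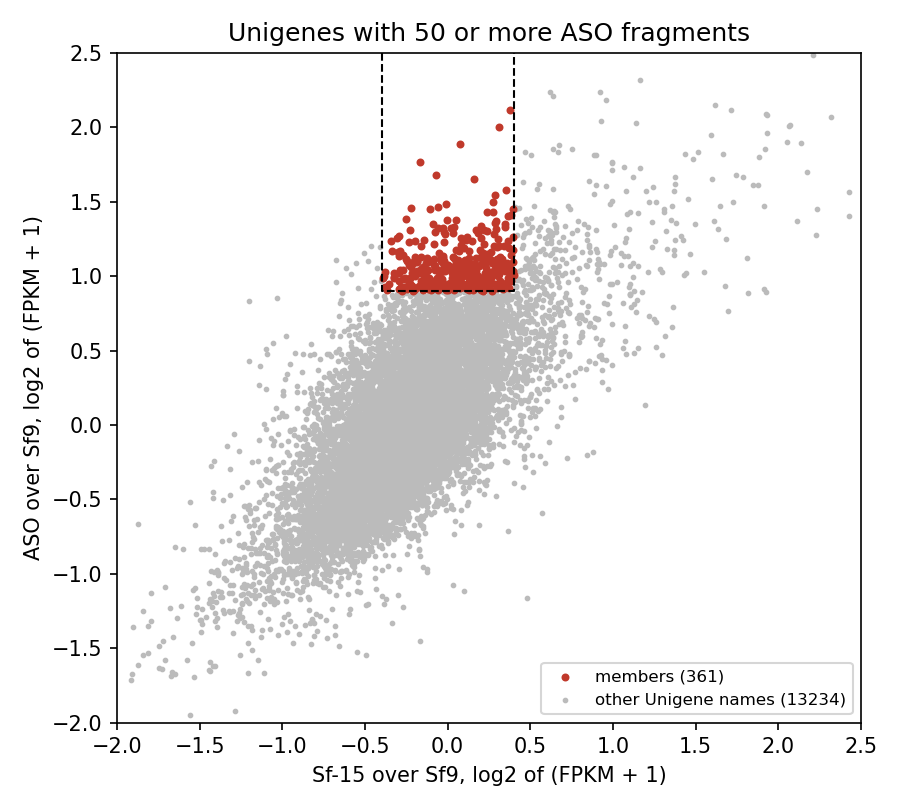
Each point is a singleton with at least 50 ASO fragments, placed by its log2 ratio of (FPKM + 1) for Sf-15 against Sf9 (x axis) and ASO against Sf9 (y axis). The 361 members (red) fill the dashed window above 0.9 and between -0.4 and 0.4, the other 13234 are grey, and 23 points lie outside the axes; both axes share the Sf9 library.

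The members were of moderate abundance. Their FPKM was 3.28 to 71.9 in ASO with a median of 7.90, 0.991 to 31.97 in Sf-15 with a median of 3.63, and 0.726 to 33.0 in Sf9 with a median of 3.20. All 361 had more fragments, and a higher FPKM, in ASO than in either other library, as the limits require. The median FPKM of the other 13234 singletons was 12.2 in ASO, 10.2 in Sf-15 and 12.8 in Sf9, so the members were the less abundant set in each library. Most members, 197, had an ASO level of 5 to 10 FPKM, and only 2 were at 50 FPKM or more, out of 1529 singletons that abundant (0.131%). The share of members was 2.11% below 5 FPKM, 4.93% at 5 to 10 FPKM, 2.62% at 10 to 20 FPKM and 1.11% at 20 to 50 FPKM. By the number of fragments, it was 4.32% at 50 to 99 ASO fragments and 0.627% at 1000 or more.

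No member was absent from normal cells. The lowest Sf9 count among them was 7 fragments and the lowest Sf-15 count 9, and 22 members had fewer than 20 fragments in Sf9. The members were therefore transcripts present in all 3 libraries at different levels.

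**Figure D2:**
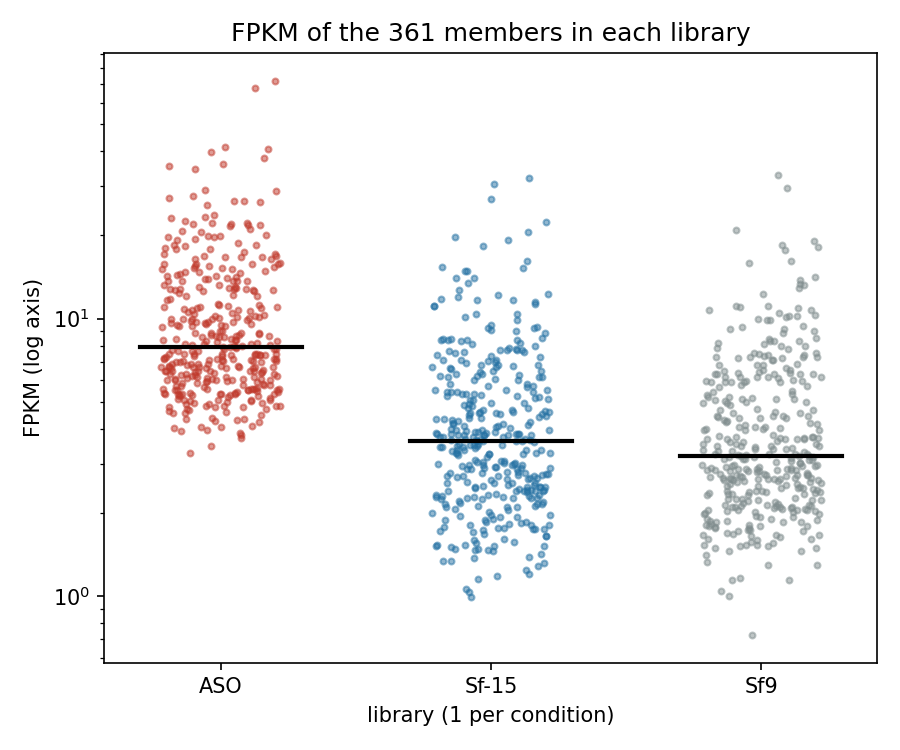
Points are the FPKM of the 361 members in ASO, Sf-15 and Sf9 (log axis, 1 library each), and bars are medians. The ASO median was 7.90 FPKM, against 3.63 in Sf-15 and 3.20 in Sf9, and the ranges of the libraries overlap because the members differ from each other in level.

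Changes were close to 2-fold for most members. The ASO to Sf9 ratio of (FPKM + 1) was 0.90 to 2.12 on the log2 scale with a median of 1.04. A ratio below 1 was found for 134 members (37.1%), and 9 reached 1.5. Adding 1 FPKM shrinks the ratio of weakly expressed unigenes. The ratio of raw fragments per library total, without any addition, was 0.96 to 3.16 with a median of 1.24. Its exact 95% interval had a median width of 1.07 and lay wholly above 0.9 for 106 members (29.4%). It lay above 0 for all 361 members, against 27.4% of the 13595, which the ASO limit and the fragment minimum bring about.

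The ratio of Sf-15 to Sf9 was less well resolved than that of ASO to Sf9. On the (FPKM + 1) scale it was -0.39 to 0.40 among the members with a median of 0.09, and 228 members were at or above 0 and 133 (36.8%) below it. Among the 13595 singletons, 78.0% were below 0. With TMM scaling 54 members were below 0. For raw fragments per library total the median ratio was 0.12, with a median interval width of 1.31. The interval included 0 for 334 members (92.5%, against 44.9% of the 13595), lay above 0 for 18 (4.99%) and below 0 for 9 (2.49%). The Sf-15 window and the low counts of the members largely bring this about. Their median was 42 fragments in Sf-15 and 43 in Sf9, against 153 and 200 over the 13595. The interval lay wholly between -0.4 and 0.4 for only 25 members (6.93%, against 15.7%). For most members a rise or fall of moderate size in Sf-15 was thus not detectable at this depth, and an unchanged level was not shown.

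Members were not spread evenly over the window. They were 1.48% of the singletons with an Sf-15 to Sf9 ratio of -0.4 to -0.2, 3.01% at -0.2 to 0, 7.10% at 0 to 0.2 and 15.6% at 0.2 to 0.4. Both ratios have the Sf9 library as denominator, and a low Sf9 count raises both.

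The ratio of ASO to Sf-15 follows from the 2 ratios that chose the members, and the limits together fix it at 0.5 or more. On the (FPKM + 1) scale it was 0.55 to 1.94 with a median of 1.0, and 230 members (63.7%) reached 0.9, against 5.0% of the 13595. The exact interval of the fragment ratio lay above 0 for all 361, against 43.9% of the 13595. The limits and the fragment minimum largely bring both contrasts about, so neither is separate support. TMM scaling shifts ASO by -0.03 and Sf-15 by 0.25 relative to Sf9, and so lowers this ratio.

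Unigene28729 (492 nt) had the largest ASO to Sf9 ratio among the members, with 63 fragments in ASO, 11 in Sf-15 and 7 in Sf9. Its level was 6.49 FPKM in ASO, 1.24 FPKM in Sf-15 and 0.726 FPKM in Sf9, a log2 ratio of (FPKM + 1) of 2.12 for ASO and 0.38 for Sf-15. The exact interval of its fragment ratio was 2.03 to 4.53 for ASO to Sf9 and -0.73 to 2.38 for Sf-15 to Sf9, so the level in Sf-15 could be below, at or well above that of normal cells. Unigene24322 (207 nt) had 73 fragments in ASO, 18 in Sf-15 and 15 in Sf9, and log2 ratios of (FPKM + 1) of 2.00 and 0.31. These 2 members near the upper limit of the window were the only ones with an ASO ratio of 2 or more, out of 27 singletons with such a ratio.

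Unigene28300 (326 nt) had 51 fragments in ASO, and 9 in both Sf-15 and Sf9. Its fragment ratio of ASO to Sf9 had an interval of 1.45 to 3.70. In Unigene28728 (908 nt), which had 122 fragments in ASO, 17 in Sf-15 and 23 in Sf9, the interval was narrower, 1.74 to 3.11. This member had the largest ASO to Sf-15 ratio of (FPKM + 1) of all, 1.94. Unigene28858 (415 nt) followed with 60 fragments in ASO, 11 in Sf-15 and 13 in Sf9. In these 3 members the Sf-15 and Sf9 counts were close to each other.

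Unigene18227 (204 nt) had 17.9 FPKM in ASO, 5.71 in Sf-15 and 5.01 in Sf9. Unigene23415 (276 nt) had 19.6 FPKM in ASO, 7.84 in Sf-15 and 5.92 in Sf9. Unigene13627 (288 nt) had 9.67 FPKM in ASO, 3.47 in Sf-15 and 2.66 in Sf9. All 3 were short and had an Sf-15 level slightly above that of normal cells. Unigene12849 (1008 nt) was the longest of the 10 members with the largest rise, at 142 fragments in ASO, 45 in Sf-15 and 37 in Sf9, and Unigene28727 (560 nt), at 51, 10 and 11 in the same order, closed this list. Of these 10, 7 were shorter than 500 nt, and the ASO to Sf9 fragment ratio of each had an interval above 1.

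**Figure D3:**
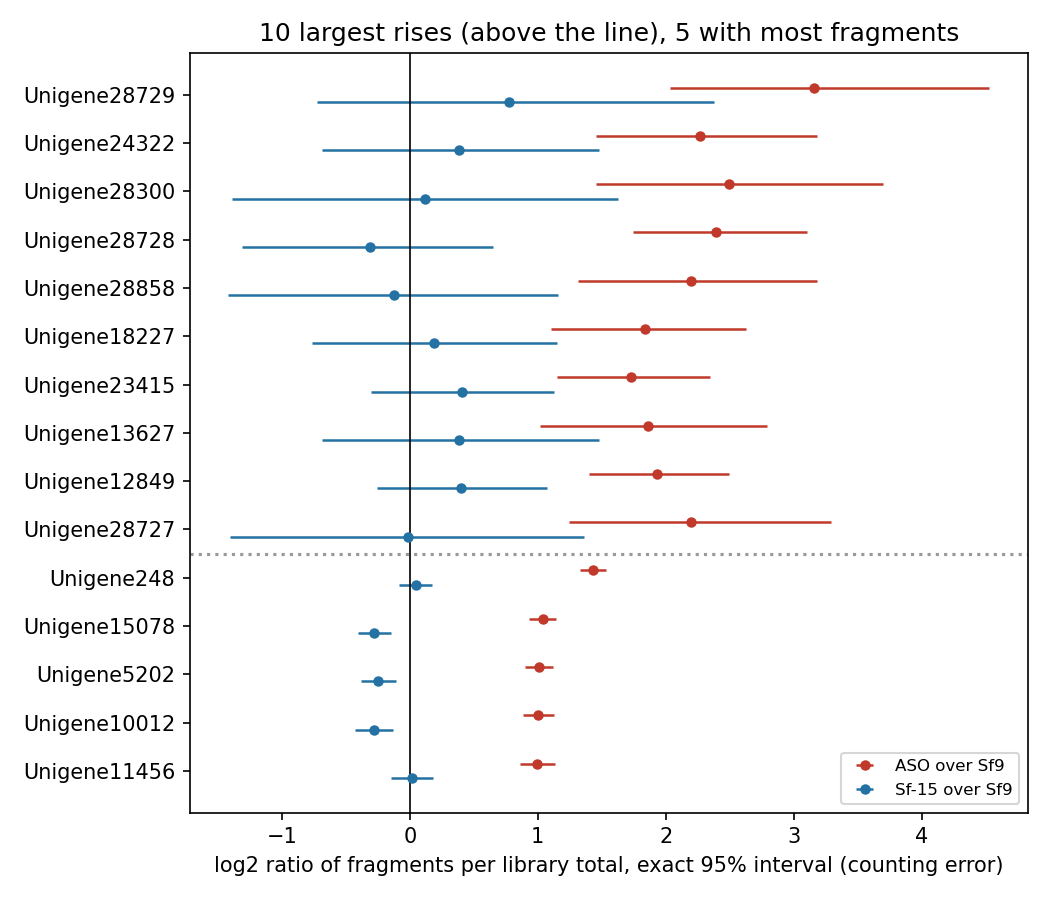
Log2 ratios of raw fragments per library total for the 10 members with the largest rise (above the dotted line) and the 5 with the most fragments (below it), with exact 95% intervals for ASO over Sf9 (red) and Sf-15 over Sf9 (blue); the intervals cover counting error only. The Sf-15 interval includes 0 for all of the upper 10, while below the line it is narrow and lies below 0 for Unigene15078, Unigene5202 and Unigene10012.

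The members with the most fragments gave the most precise values. Unigene248, at 6346 nt also the longest member, had 2765 fragments in ASO, 966 in Sf-15 and 1017 in Sf9. Its level was 22.1 FPKM in ASO, 8.45 FPKM in Sf-15 and 8.18 FPKM in Sf9, with a fragment ratio to Sf9 of 1.43 (1.33 to 1.54) in ASO and 0.05 (-0.08 to 0.17) in Sf-15. It is one of the 25 members for which the Sf-15 interval stayed within the window at the deposited scaling. Unigene11456 (1837 nt) was of the same kind, with 1303 fragments in ASO, 604 in Sf-15 and 649 in Sf9. Its fragment ratio to Sf9 was 0.99 (0.86 to 1.13) in ASO and 0.02 (-0.15 to 0.18) in Sf-15. With TMM scaling the Sf-15 interval was 0.17 to 0.42 for Unigene248 and 0.10 to 0.43 for Unigene11456, above 0 and past the window in both. Of the 25, 5 still had an interval within the window by that scaling and 9 had one above 0.

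Other long members were slightly lower in Sf-15 than in Sf9 at the deposited scaling. Unigene5202 (5193 nt) had 2055 fragments in ASO, 786 in Sf-15 and 1014 in Sf9, an Sf-15 to Sf9 fragment ratio of -0.25 (-0.38 to -0.11). Unigene10012 (5691 nt) had 1690 fragments in ASO, 633 in Sf-15 and 836 in Sf9, a ratio of -0.28 (-0.43 to -0.13). Unigene17273 (6264 nt) had 882 in ASO, 220 in Sf-15 and 320 in Sf9, a ratio of -0.42 (-0.67 to -0.17). Unigene14871 (5121 nt) had 987 in ASO, 269 in Sf-15 and 383 in Sf9, a ratio of -0.39 (-0.62 to -0.16). The TMM shift of 0.25 is as large as the first of these ratios and takes up most of the next. Over the 22 members of at least 3000 nt, the median Sf-15 to Sf9 ratio of (FPKM + 1) was -0.07, and 59.1% of them were below 0. Over the 13595 singletons the median was -0.26 and 78.0% were below 0, so a lower level in Sf-15 was not particular to long members.

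In abundance, Unigene16482 (415 nt) led with 71.9 FPKM in ASO, 31.97 in Sf-15 and 33.0 in Sf9. Unigene20551 (404 nt) had 67.8 FPKM in ASO, 30.5 in Sf-15 and 29.4 in Sf9. These were the 2 members above 50 FPKM, and both stood at about the same level in Sf-15 as in normal cells at the deposited scaling. With TMM scaling the Sf-15 to Sf9 fragment ratio was 0.20 (-0.05 to 0.46) for Unigene16482 and 0.30 (0.03 to 0.57) for Unigene20551. Unigene16205 (1204 nt) had 41.4 FPKM in ASO, 27.0 in Sf-15 and 20.9 in Sf9. Its Sf-15 to Sf9 fragment ratio was 0.37 (0.19 to 0.55), so it was within the window but above Sf9 in both transfected libraries. Unigene4317 (657 nt) had 40.7 FPKM in ASO, 16.1 in Sf-15 and 19.0 in Sf9. Unigene4367 (451 nt) had 39.8 FPKM in ASO, 19.2 in Sf-15 and 18.5 in Sf9.

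The 5 members with the flattest Sf-15 ratio were 404 to 1476 nt long. Unigene8361 (404 nt) had 21.7 FPKM in ASO, and 11.1 FPKM in both Sf-15 and Sf9. Unigene22789 (750 nt) had 6.69 FPKM in ASO, 2.66 in Sf-15 and 2.65 in Sf9. Unigene10427 (1139 nt) had 7.07 FPKM in ASO, 2.096 in Sf-15 and 2.107 in Sf9, and its ASO to Sf9 ratio of (FPKM + 1), 1.38, was the largest among the 5 flattest. Unigene7645 (1341 nt) and Unigene12587 (1476 nt) had ASO ratios of 0.95 and 0.93. An equal FPKM still left a wide range for the ratio. In Unigene8361, with 173 fragments in ASO, 81 in Sf-15 and 88 in Sf9, the Sf-15 to Sf9 interval was -0.45 to 0.45.

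Members just inside and just outside the limits differed little. At the ASO limit of 0.9, the nearest inside were Unigene4068, Unigene12588 and Unigene11721, with 0.90 each, and the nearest outside were Unigene2540, Unigene481 and Unigene11071, also with 0.90 each. Their values agree to 2 decimals, while their ASO intervals were over 0.7 wide. At the upper Sf-15 limit, Unigene4311, Unigene4262 and Unigene3455 were inside at 0.40, and Unigene10771 at 0.40 and Unigene11876 and Unigene9096 at 0.41 were outside. Unigene9096 (1623 nt) is the best measured of these, with 1252 fragments in ASO, 535 in Sf-15 and 430 in Sf9. At the lower Sf-15 limit, Unigene9667 and Unigene7290 at -0.39 and Unigene23964 at -0.38 were inside, and Unigene3373 at -0.40, Unigene4727 at -0.41 and Unigene10118 at -0.43 were outside. Unigene6255, Unigene9667 and Unigene12088 had exactly 50 ASO fragments, and Unigene9843, Unigene11937 and Unigene16110 missed the minimum with 49.

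The apoptosis pathway list of the study holds 21 unigene names, of which 15 are singletons. It names them for a rise upon repression and the opposite upon overexpression in these libraries, so their direction in neither ratio is independent evidence. Of the 15, 14 were within the Sf-15 window (61.7% of the 13595 were) and 14 had at least 50 ASO fragments, and 2 reached the ASO limit (4.92% of the 13595 did) and were members. Unigene15078 (3954 nt) had 2258 fragments in ASO, 828 in Sf-15 and 1091 in Sf9. Its level was 28.9 FPKM in ASO, 11.6 in Sf-15 and 14.1 in Sf9, a log2 ratio of (FPKM + 1) of 0.99 for ASO and -0.26 for Sf-15. Its Sf-15 to Sf9 fragment ratio of -0.28 had an interval of -0.41 to -0.15, below 0 at the deposited scaling, and it is close in size to the TMM shift. Unigene18724 (887 nt) had 228 fragments in ASO, 87 in Sf-15 and 107 in Sf9. Its level was 13.0 FPKM in ASO, 5.44 in Sf-15 and 6.16 in Sf9, ratios of 0.97 and -0.15, with an Sf-15 interval of -0.60 to 0.24 that includes 0.

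The other 13 singletons of the apoptosis list had smaller ASO ratios. Over all 15 the ASO to Sf9 ratio of (FPKM + 1) was 0.11 to 0.99 with a median of 0.34, and the Sf-15 to Sf9 ratio was -0.51 to -0.0029 with a median of -0.21. The medians of the 13595 singletons were -0.03 and -0.26, so the Sf-15 ratios of the list lay around that of all singletons. Unigene5382 (3100 nt) came next with 18.0 FPKM in ASO, 10.3 in Sf-15 and 11.0 in Sf9, an ASO ratio of 0.66. Unigene22252 (1260 nt) had 5.75 FPKM in ASO, 2.82 in Sf-15 and 3.36 in Sf9, an ASO ratio of 0.63. Unigene18734 (1816 nt), the most abundant of the list, had 63.7 FPKM in ASO, 49.2 in Sf-15 and 58.8 in Sf9. The label of the members as raised upon repression thus covers 2 of the 15 apoptosis singletons, and the remaining 13 stayed under the ASO limit. The largest ASO ratio of the list was that of a cluster contig, CL798.Contig2, at 1.45, with -0.06 for Sf-15. It had 988 fragments in ASO, 277 in Sf-15 and 318 in Sf9, and is no member by its name only. The other cluster contigs of the list had ASO ratios of 0.07 to 0.44.

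The limits set no condition on length itself, but length enters them in 2 ways. The fragment minimum favours long unigenes, and at equal counts adding 1 FPKM shrinks the ratio of a longer unigene more. The shares by length below are thus partly set by the limits. Members were 204 to 6346 nt long with a median of 731 nt, and the other 13234 singletons had a median of 917 nt. Members made up 3.59% of the singletons under 500 nt, 3.23% at 500 to under 1000 nt, 1.79% at 1000 to under 2000 nt, 1.30% at 2000 to under 3000 nt and 2.62% at 3000 nt or more. The 294 singletons with a raised ASO level and an Sf-15 ratio above the window had a median length of 625 nt. Their median FPKM was 9.30 in ASO, 6.44 in Sf-15 and 3.25 in Sf9, and their median ASO to Sf9 ratio of (FPKM + 1), 1.25, was above the 1.04 of the members. The larger rises upon repression were mostly found in that set, as members held 72.0% of the singletons with an ASO ratio of 0.9 to 1 and 12.7% at 1.5 to 2.

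Unigene numbers, which the assembly assigned, were not used by the limits. In blocks of 2000 numbers up to 26000, the members were 1.77% to 3.38% of the singletons with at least 50 ASO fragments. In the block that ends at 30000 they were 13 of 47, 27.7% (exact 95% interval 15.6% to 42.6%). This interval takes unigenes as independent, though 3 of the 13 have consecutive numbers. The block also has the highest share of the 16. Above 26000, only 168 of 4924 singletons (3.41%) reached 50 ASO fragments, against 13427 of 25997 (51.6%) up to 26000. Where few reach it, a minimum set in ASO alone favours unigenes that are high in ASO. Of those that reached it, members were 21 of 168 (12.5%) above 26000 and 340 of 13427 (2.53%) up to 26000. Numbers above 26000 had fewer fragments, a median of 101 in ASO against 201. Among singletons with 50 to 99 ASO fragments alone, the shares were 14 of 84 (16.7%) and 154 of 3805 (4.05%). The fragment minimum favours such a difference, and what else may lie behind it was not tested. The singletons above 26000 that reached the minimum were shifted as a whole. Members included, their median ratio of (FPKM + 1) was 0.30 for ASO and -0.0018 for Sf-15, against -0.03 and -0.26 up to 26000. In the block that ends at 30000 the median ASO ratio was 0.62, with 36.2% at 0.9 or more. The minimum in ASO favours high ASO ratios here too. The split at 26000 was set after the 16 blocks had been seen. The 13 members of the block that ends at 30000 had 51 to 122 fragments in ASO, 9 to 24 in Sf-15 and 7 to 34 in Sf9. With so few fragments, the minimum of 50 in ASO and the ratio limits largely set the gap between these ranges. The gap is therefore no result about these 13 members.

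**Figure D4:**
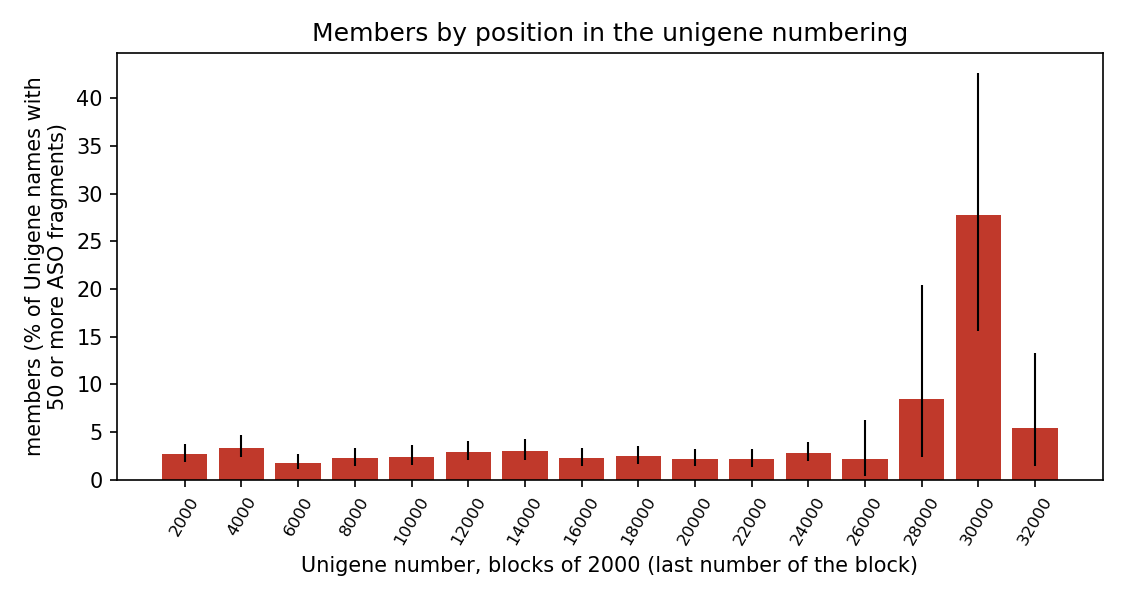
Bars give the members as a percentage of the singletons with at least 50 ASO fragments in each block of 2000 unigene numbers (x axis, last number of the block), with exact 95% binomial intervals. The intervals take unigenes as independent. All blocks up to 26000 lie between 1.77% and 3.38%, and the block ending at 30000 stands at 27.7% (13 of 47). Only 47 of the 1997 singletons in that block reached the minimum, which favours unigenes high in ASO.

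Neighbouring numbers were found together in 8 runs that held 17 members, and 1 run had more than a pair. It consisted of Unigene28727, Unigene28728 and Unigene28729, all described above among the 10 largest rises. The unigenes next to the run were looked at after its values were seen. Unigene28726 (336 nt) had 49 fragments in ASO, 5 in Sf-15 and 8 in Sf9, and so met both ratio limits, with 1.92 and -0.28, and missed the fragment minimum by 1. Unigene28725 (343 nt) had 21, 8 and 6 fragments in the same order. These 5 consecutive unigenes were thus all highest in ASO. On the other side of the run, Unigene28730 (205 nt) had 9 fragments in ASO, 3 in Sf-15 and 6 in Sf9, too few to separate the libraries. Whether the 5 are pieces of 1 transcript was not tested, since no unigene sequence was analysed here.

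The next runs were pairs. Unigene40 (3058 nt) and Unigene41 (3480 nt) had 7.47 and 5.37 FPKM in ASO, 2.995 and 2.66 in Sf-15 and 3.31 and 2.32 in Sf9. Unigene618 (635 nt) and Unigene619 (943 nt) had 4.79 and 5.53 FPKM in ASO, 2.098 and 1.65 in Sf-15 and 1.77 and 2.38 in Sf9. The Sf-15 interval of the fragment ratio included 0 for all 4. A single pair of members, Unigene12088 and Unigene15635, had equal counts in every library, with 50 fragments in ASO, 17 in Sf-15 and 19 in Sf9. Their lengths are 522 nt and 356 nt, so their FPKM values differ, and so do their ASO to Sf9 ratios of (FPKM + 1), 1.03 and 1.12.

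The contigs of assembled clusters were left out of the members by name. Under the same limits, 81 of 5380 cluster contigs with at least 50 ASO fragments (1.51%) would have met them, against 361 of 13595 singletons (2.66%). Contigs of 1 cluster can share fragments, so these 81 need not be separate transcripts.

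Which singletons met the limits depended on the scaling. With TMM scaling 226 singletons met the limits, and 217 of them were among the 361, which is 60.1% of the members as deposited and 96.0% of those under TMM scaling. Of the 361, 111 moved above the Sf-15 window and 42 fell under the ASO limit. None (0) moved below the window. The members that left it on the upper side stood, by that scaling, above Sf9 in both transfected libraries. Unigene248, Unigene15078 and the other members with the most fragments kept an ASO to Sf9 ratio within 0.04 of the deposited value, as this scaling shifts it by -0.03 at most.

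**Figure D5:**
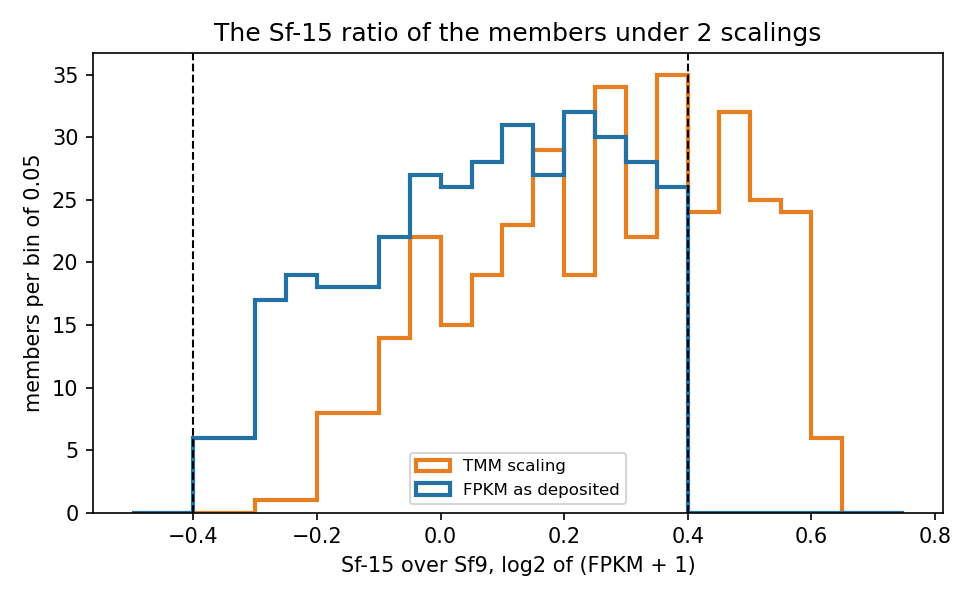
Histogram of the Sf-15 to Sf9 log2 ratio of (FPKM + 1) of the 361 members with FPKM as deposited (blue) and with TMM scaling (orange), in bins of 0.05, with dashed lines at -0.4 and 0.4. The median moved to 0.29 with TMM scaling, against 0.09 as deposited, and 111 members passed the upper line.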

How the data were processed

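Total RNA of 3 cultures was sequenced on an Illumina HiSeq instrument. The authors trimmed low-quality ends, removed adaptor sequence and repeated reads, and built the unigenes de novo, for which they name Trinity, TGICL and Phrap. The aligner and counter are not given in the sources used here. The 3 deposited tables give raw fragments (counts without normalization) and the authors' FPKM for each pair of libraries. They also hold the authors' log2 ratios, directions, p-values and false discovery rates, which were not used. The tables were joined by name, with 0 for a unigene not listed. The raw fragments matched the header totals in 6 of 6 checks, and 0 values differed between tables.

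Members were found from the deposited FPKM with 1 added, by code that was first tested on simulated data. The unigenes changed there had more fragments, higher FPKM and larger rises than most members. That run checked the code and says nothing on how well members near the limits are found. The members, limits and the apoptosis list were chosen with earlier results of these data known. Named unigenes were the 10 with the largest ASO ratio, the 5 with the highest ASO FPKM, with the most fragments, the longest and with the flattest Sf-15 ratio, the 3 nearest to each limit on either side, the apoptosis singletons and the first 3 runs of consecutive numbers. Intervals of fragment ratios and shares are exact binomial (Clopper-Pearson) at 95%. They take fragments as independent, which copies made by PCR are not, and for shares by unigene number they take unigenes as independent. None covers the spread between cultures. With 1 library per condition, and ratios that chose the members, no test was run. Python 3.11.15 with numpy 2.4.6, pandas 2.3.3, scipy 1.17.1 and matplotlib 3.10.9, and R 4.3.3 with edgeR 4.0.16 (TMM factors) were used.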

Additional observations from a re-analysis of the deposited data

How the results depend on the processing

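No paired analysis was possible because of the single library per condition, and no library could be left out. The number of members, 361 as deposited, was 206 with 2 FPKM added, 1148 with no minimum of fragments, 193 with at least 100 ASO fragments, 227 with an ASO limit of 1, 197 with an Sf-15 window of -0.2 to 0.2, 226 with TMM scaling and 219 with median-of-ratios scaling. It stayed within 1.5 times 361 with 0.5 FPKM added (468), with library totals that leave out CL1590.Contig3 (499) and with cluster contigs included (442). FPKM recomputed from fragments also gave 361. Requiring an ASO to Sf9 interval above 0 left 361 as well, since the limits already bring that about. Of the 499, 233 were among the 361. Among the 68 named unigenes the ASO to Sf9 ratio kept its sign under all 5 of the pseudocount and scaling alternatives, and the Sf-15 to Sf9 ratio changed sign for 20 with TMM scaling, 16 with median-of-ratios scaling and 22 without CL1590.Contig3. The stricter limits leave fewer members by construction. At this depth the Sf-15 ratio of members with 50 to 99 ASO fragments had a median interval width of 1.65, against 0.35 at 1000 or more.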
